A study of Mus musculus with 5 samples.

Results

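Neutrophil genes, ordered by the granule their product is packed in and by the stage of maturation at which they are transcribed, were followed in sorted cells of mice with B16-F10 melanoma. The list named 36 genes, of which 7 encode cargo of the primary and secondary granules and 29 were grouped as genes of mature neutrophils. The stage of the 29 was not tested here. They also include genes of granule proteins, such as Lcn2 and Mmp8, and the marrow transcription factor Cebpe. A gene counted as measured when a probe set of the array was paired with its symbol, and each measured member had a single probe set. That held for 34 of the 36 genes, out of 19505 genes in all, and Ly6g and Slpi were not analysed here. The 34 comprised 7 granule genes (Mpo, Elane, Prtn3, Ctsg, Camp, Ngp and Ltf) and 27 genes of mature neutrophils.

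The study compared 3 arrays of MyD88-ko mice with 2 arrays of wild-type (WT) mice, and MyD88 is the adaptor of the interleukin-1 receptor family and of most Toll-like receptors. Both groups were C57BL/6 mice of either sex, aged 6 to 12 weeks, that carried B16-F10, a melanoma line of the same mouse strain, under the skin. At day 15, cells positive for CD45, CD11b and F4/80 (the product of Adgre1) that lacked the lymphoid markers CD3, B220 and NK1.1 were sorted and labelled tumour-associated macrophages, although the protocol names spleen cells as their source. The labels do not describe the MyD88-ko allele beyond its name, they do not say whether an array held 1 mouse or a pool, and the gate they give has no term for the product of Ly6g. Separate mice behind the arrays of a group are not stated, so the p-values reflect only array-to-array spread, which may be technical.

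Neutrophils are short-lived granulocytes that mature in the bone marrow under granulocyte colony-stimulating factor. Their granules are filled in sequence: primary granule proteins such as myeloperoxidase and the serine proteases are transcribed in promyelocytes, secondary granule proteins such as lactoferrin in myelocytes, and gelatinase and surface receptors later, when the earlier genes have been switched off. A mature neutrophil outside the marrow therefore carries granule proteins whose mRNA it has largely stopped making. The comparison between genotypes addressed which of these sets of transcripts differed in cells that lacked MyD88.

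Values are log2 signals after RMA, an array method that corrects background, equalizes the arrays and summarizes the probes. Signal was judged against 5222 negative-control probe sets, whose 95th percentile, used as the background limit, lay between 6.55 and 6.74 on the MyD88-ko arrays and at 6.91 and 6.96 on the WT arrays. This limit is strict, since 75.9% of all 19505 genes did not exceed it anywhere. The negative controls themselves had a median difference of -0.14 between MyD88-ko and WT, and the median over all genes was 0.02. Of 9 measured macrophage markers 8 were above the limit on all arrays, and the other, Mertk, was above it on the MyD88-ko arrays alone. Levels of different genes are not compared, because probe sets differ in brightness.

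Transcripts of the 7 listed primary and secondary granule genes lay among the negative controls in both genotypes, with 9.7% to 80.5% of the controls at or below them. Some genes grouped as mature were above the background limit in WT and lower in MyD88-ko. The contrast depends on this grouping, since Lcn2, the gene of a granule protein, was counted as mature. All 7 granule genes were under the limit on every array. Of the 27 mature genes, 9 were above the limit on both WT arrays, and 6 of those 9 were above it on no MyD88-ko array. Of all 19505 genes, 3420 were above it on WT replicate 1 and 3480 on WT replicate 2. On MyD88-ko replicates 1 to 3 these numbers were 4334, 4194 and 3968. How many of all genes were above it on both WT arrays and on no MyD88-ko array was not counted. The median log2 difference was -1.10 over the mature genes and -0.12 over the granule genes, against 0.02 over all genes. With every value under the background limit set to that limit, both medians were -0.31 and their difference was 0, as 16 of the 27 mature genes exceeded the limit on no array. In the limma fit over all genes 7 of the 27 mature genes passed (Benjamini-Hochberg adjusted p under 0.05), all of them lower in MyD88-ko, where the background was 0.185% of all genes (36 of 19505). No granule gene passed, and no member was higher (background 0.00513%). At an unadjusted p under 0.05, 20 mature genes and 1 granule gene were lower (background 6.39%). These arrays measure bulk RNA, in which fewer neutrophils, less RNA per neutrophil and lower expression in the other sorted cells cannot be told apart.

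**Figure D1:**
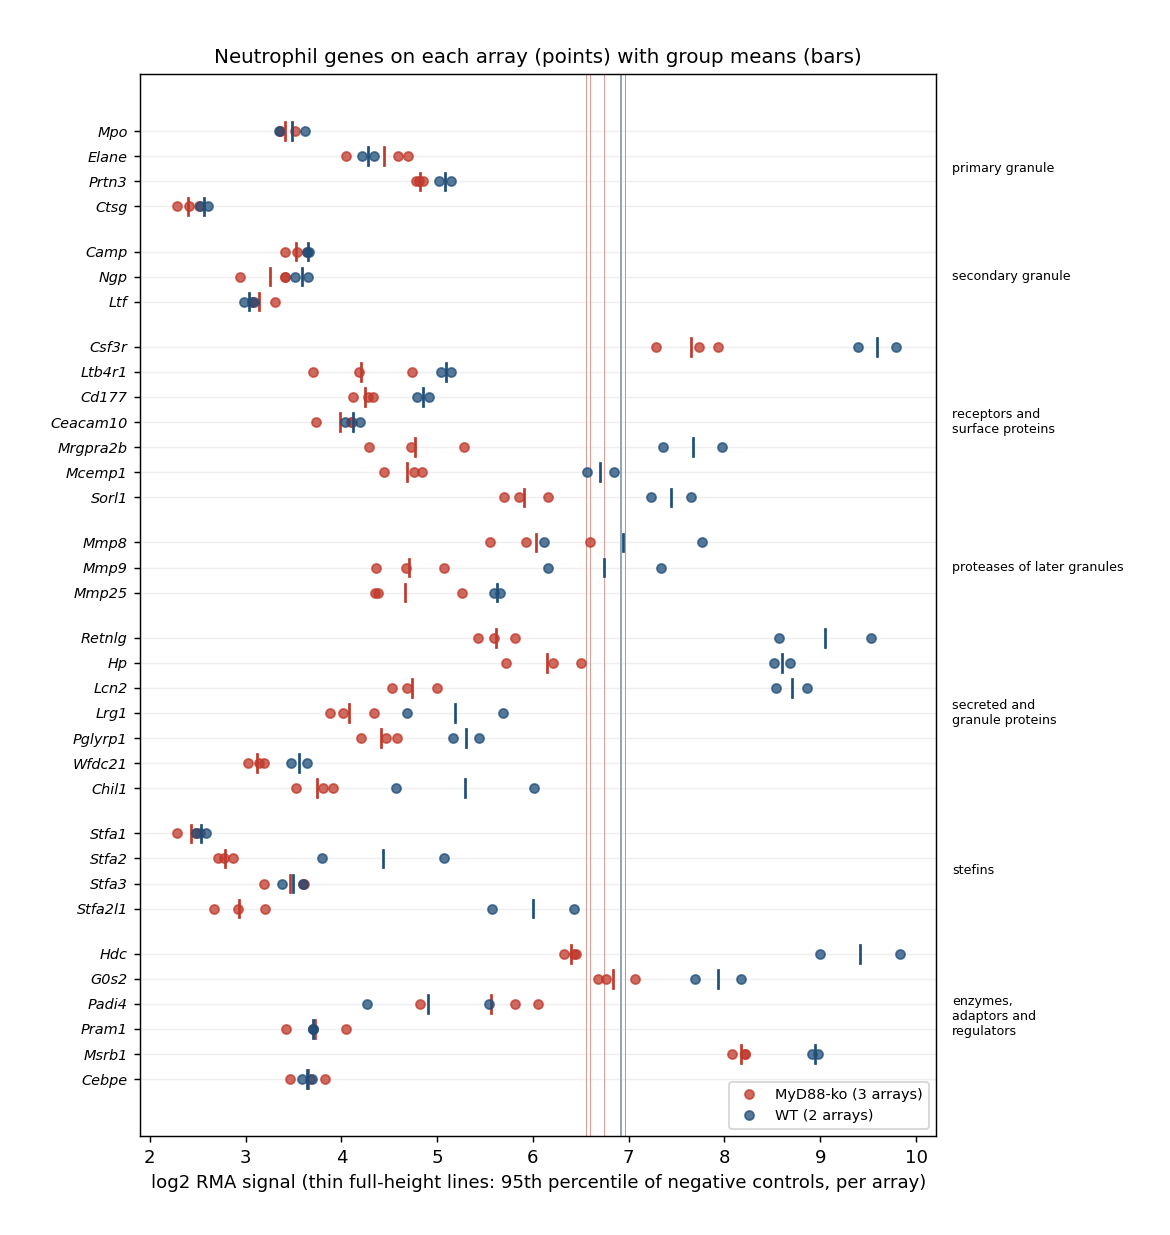
Log2 RMA signal (x axis) of the 34 measured neutrophil genes (grouped by role) on 3 MyD88-ko arrays (red) and 2 WT arrays (blue), with short bars at the group means and thin vertical lines at the background limit of each array. The 7 granule genes lie left of every limit, with group means that differ by at most 0.33, while Retnlg, Hp, Lcn2 and Hdc are above the limits in WT alone.

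Among the primary granule genes, Mpo, which encodes myeloperoxidase, read 3.36, 3.36 and 3.51 on the MyD88-ko arrays and 3.62 and 3.35 on the WT arrays. The groups overlapped, and the log2 difference was -0.07 (95% interval -0.38 to 0.23). Between 43.4% and 50.3% of the negative controls lay at or below Mpo, which puts it in the middle of the background. Elane, encoding neutrophil elastase, read 4.69, 4.05 and 4.59 in MyD88-ko and 4.21 and 4.34 in WT. Its groups overlapped as well, with a difference of 0.17 (95% interval -0.33 to 0.67).

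Prtn3, encoding proteinase 3, read 4.85, 4.82 and 4.78 in MyD88-ko and 5.15 and 5.02 in WT. These groups did not overlap, and the difference of -0.27 had a 95% interval of -0.51 to -0.02 but did not pass over all genes (limma, adjusted p = 0.357). Ctsg, encoding cathepsin G, was the dimmest of the 4 against the controls, with 9.7% to 21.6% of them at or below it. It read 2.41, 2.52 and 2.28 in MyD88-ko and 2.61 and 2.53 in WT, a difference of -0.17 (95% interval -0.45 to 0.11).

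The secondary granule genes looked alike. Camp, the precursor of the antimicrobial peptide cathelicidin, read 3.54, 3.64 and 3.41 in MyD88-ko and 3.67 and 3.64 in WT, a difference of -0.12 (95% interval -0.40 to 0.15). Ngp, a cystatin-related granule protein, read 3.42, 3.42 and 2.94 against 3.66 and 3.52, which did not overlap but differed by only -0.33 (95% interval -0.75 to 0.10). Ltf, lactoferrin, read 3.30, 3.06 and 3.06 against 3.09 and 2.99, a difference of 0.11 (95% interval -0.19 to 0.40). All 7 granule genes were under the limit in WT already, so a fall in MyD88-ko may have been hard to detect. Being under the limit did not by itself hide a fall, since Stfa2l1 and Mcemp1 passed with every array under it. On the WT arrays 78.8% and 77.3% of the negative controls lay at or below Prtn3, and 63.7% and 65.7% at or below Elane.

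All 7 granule differences lay inside the range that held the central share of the negative controls, from -0.89 at their 5th percentile to 0.34 at their 95th. Of the 27 mature genes, 16 lay below that range, 10 inside it and 1 above it. The groups did not overlap, with every MyD88-ko array lower, for 3 of the 7 granule genes (Prtn3, Ctsg and Ngp) and for 20 of the 27 mature genes. Over all genes this was so for 12.9%, and over the negative controls for 23.9%. The higher background on the WT arrays thus moved in the same direction as the dimmest members, and its part in their differences was not tested.

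**Figure D2:**
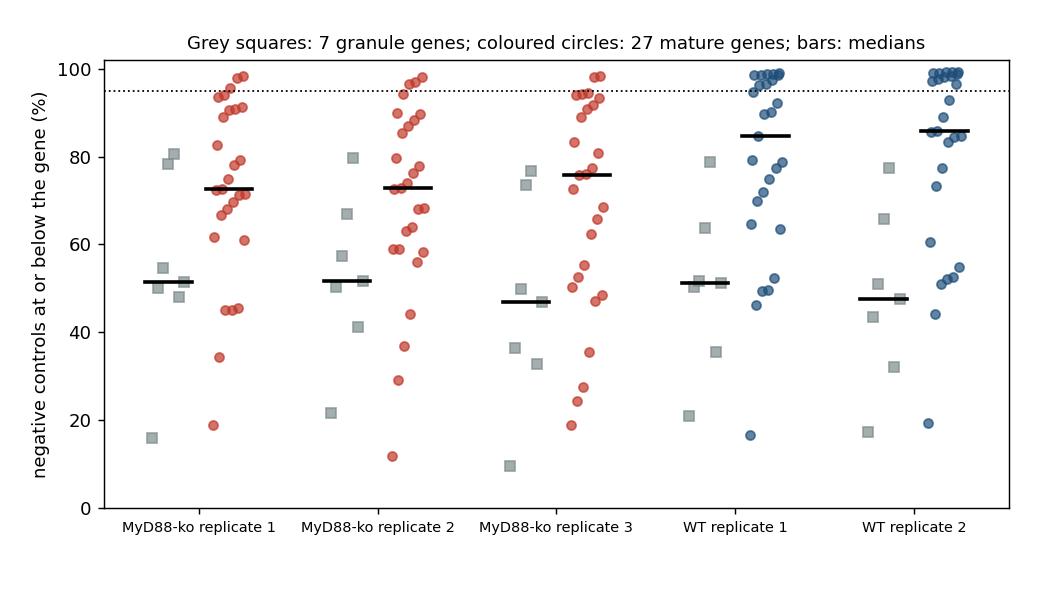
Share of the 5222 negative controls at or below each gene (y axis, percent) on each of the 5 arrays (x axis), for the 7 granule genes (grey squares) and the 27 mature genes (circles), with black bars at the medians and a dotted line at 95%. The granule medians lie between 46.9% and 51.7% on every array, and the mature medians rise from 72.7%, 72.9% and 75.9% on the MyD88-ko arrays to 84.7% and 85.7% on the WT arrays.

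The upstream sequences of 4 members are shown because they carry the motifs of the 2 factors best known for driving granule genes, C/EBP proteins and PU.1, in genes from both sides of the contrast. Each run is the 250 bases before the RefSeq start of the gene on GRCm38.p6, 5′ to 3′ on the strand of the gene, with motif matches in capitals. Elane (chr10:79886062-79886311, plus strand) and Prtn3 (chr10:79879417-79879666, plus strand) are neighbouring primary granule genes, Ngp (chr9:110419558-110419807, plus strand) is a secondary granule gene, and Lcn2 (chr2:32387740-32387989, minus strand) is the member with the lowest log2 difference.
Elane: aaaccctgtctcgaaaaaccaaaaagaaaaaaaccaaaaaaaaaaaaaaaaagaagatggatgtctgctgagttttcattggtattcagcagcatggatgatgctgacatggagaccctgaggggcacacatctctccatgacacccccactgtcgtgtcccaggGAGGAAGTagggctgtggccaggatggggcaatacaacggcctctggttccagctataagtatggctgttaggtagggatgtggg
Prtn3: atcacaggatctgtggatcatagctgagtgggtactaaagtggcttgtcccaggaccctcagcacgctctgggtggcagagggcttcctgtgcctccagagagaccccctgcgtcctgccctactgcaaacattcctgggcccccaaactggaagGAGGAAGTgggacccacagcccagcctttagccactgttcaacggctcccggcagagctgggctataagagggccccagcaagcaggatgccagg
Ngp: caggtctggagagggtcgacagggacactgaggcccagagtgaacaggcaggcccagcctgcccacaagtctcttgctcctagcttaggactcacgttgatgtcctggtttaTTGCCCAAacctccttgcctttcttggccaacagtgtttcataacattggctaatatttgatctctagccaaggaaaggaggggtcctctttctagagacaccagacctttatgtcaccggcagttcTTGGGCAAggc
Lcn2: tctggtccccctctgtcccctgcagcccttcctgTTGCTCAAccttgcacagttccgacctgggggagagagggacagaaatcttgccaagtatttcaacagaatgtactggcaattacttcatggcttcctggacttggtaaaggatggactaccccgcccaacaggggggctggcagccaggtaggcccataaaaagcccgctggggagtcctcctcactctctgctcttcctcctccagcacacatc
The PU.1 motif GAGGAAGT, searched on both strands, stood at -85 to -78 from the start in Elane and at -95 to -88 in Prtn3. It was found upstream of 5 of the 32 members that have a window (Elane, Prtn3, Mpo and the mature genes Mmp8 and Ly6g) and in 2.44% of all 32851 windows of this length. The C/EBP motif TTGCNNAA occurred at 2 places in Ngp, at -138 to -131 and, on the other strand, at -11 to -4, and once in Lcn2, at -216 to -209. It was found upstream of 9 of the 32 members that have a window (Lcn2, Ltf, Ly6g, Mmp8, Ngp, Retnlg, Slpi, Sorl1 and Stfa1) and in 9.56% of all windows. The NF-kB motif was found in 1 member, Pglyrp1, and in 1.41% of all windows. A member was counted if any of its windows held the motif, and Sorl1, Ly6g, Ceacam10 and Pram1 have 2 windows. The percentages are per window, so they are not on the same footing as the counts of members. No match overlapped another in these members. A match describes the letters only, and genes with the C/EBP motif included Lcn2 and Retnlg, which fell, and Ngp and Ltf, which were at background in both genotypes.

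Of the 7 measured genes of secreted and granule proteins, 3 fell. Lcn2 encodes lipocalin 2, which withholds iron from bacteria by binding their siderophores. It read 5.0, 4.69 and 4.53 on the MyD88-ko arrays and 8.54 and 8.86 on the WT arrays. The gap of 3.54 between the highest MyD88-ko array and the lower WT array was the widest among the members. Its MyD88-ko average was 4.74 ± 0.24 (SD, n = 3) against a WT average of 8.70 ± 0.23 (SD, n = 2), and since no MyD88-ko array exceeded the limit the fold is a bound, at least 4.21-fold lower (limma, adjusted p = 0.0037).

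Retnlg, a resistin-like gene of granulocytes, read 5.60, 5.43 and 5.82 in MyD88-ko and 8.57 and 9.53 in WT. No array overlapped, and the fall was at least 5.35-fold (limma, adjusted p = 0.029). Hp encodes haptoglobin, the haemoglobin-binding plasma protein that neutrophils also store. It read 6.22, 5.72 and 6.50 against 8.52 and 8.69, at least 3.93-fold lower (limma, adjusted p = 0.035). Measured on the log2 scale, Lcn2, Retnlg, Stfa2l1, Hdc and Mrgpra2b held ranks 3 to 7 among all 19505 genes ordered from the lowest difference, after S100a8 and S100a9.

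The other 4 measured genes of this role were under the limit on all arrays and did not pass. Chil1, a chitinase-like protein, read 3.80, 3.92 and 3.53 in MyD88-ko and 4.57 and 6.01 in WT, so that its difference of -1.54 rested on WT arrays that were 1.44 apart. The means of Lrg1, a leucine-rich glycoprotein, were 4.08 and 5.19, and those of Pglyrp1, which recognizes bacterial peptidoglycan, 4.42 and 5.30. Wfdc21, a small secreted protein of the WAP family, was near the middle of the controls at 3.12 and 3.56. In all 7 genes of this role every MyD88-ko array lay below both WT arrays (background 12.9%).

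The receptors and surface proteins included 2 genes that fell. Mrgpra2b, a Mas-related G protein-coupled receptor, read 4.29, 5.28 and 4.73 in MyD88-ko and 7.35 and 7.98 in WT, at least 2.05-fold lower (limma, adjusted p = 0.044). Mouse Mrgpra genes form a family of close copies, so its probe set may also read relatives. Mcemp1, a membrane protein of mast cells and myeloid cells, read 4.76, 4.45 and 4.84 against 6.84 and 6.56. Both its means, 4.68 ± 0.21 (SD, n = 3) and 6.70 ± 0.20 (SD, n = 2), were under the limit, so no fold is given (limma, adjusted p = 0.029).

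Csf3r, the receptor for granulocyte colony-stimulating factor, was the brightest case for a member that just missed the threshold. It was above the limit on all 5 arrays, at 7.74, 7.28 and 7.94 in MyD88-ko and 9.39 and 9.79 in WT. The groups did not overlap, and the 3.84-fold difference (log2 -1.94, 95% interval -2.49 to -1.40) had an adjusted p of 0.051 in the limma fit. It did pass after quantile normalization again, with cyclic loess, with equal array medians and in 4 other settings that are listed with the processing alternatives. Sorl1, a sorting receptor that is not restricted to neutrophils, read 5.85, 5.70 and 6.16 against 7.23 and 7.66, at least 1.76-fold lower (limma, adjusted p = 0.058).

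The rest of this role was dim. Ltb4r1, the leukotriene B4 receptor, had means of 4.21 and 5.09, and Cd177, a surface protein of neutrophils that associates with proteinase 3, 4.24 and 4.85. Ceacam10, a member of the carcinoembryonic antigen family, had means of 3.98 and 4.12 and was the only 1 of the 7 whose arrays overlapped.

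The proteases of later granules differed less clearly, and the WT arrays disagreed. Mmp9, the gelatinase of tertiary granules, read 4.68, 4.36 and 5.07 in MyD88-ko and 6.16 and 7.34 in WT. The groups did not overlap, but only WT replicate 2 was above the limit, and the difference of -2.04 (at least 1.08-fold lower) did not pass (limma, adjusted p = 0.138). Mmp8, neutrophil collagenase, read 5.93, 5.55 and 6.60 against 6.11 and 7.77, so that WT replicate 1 lay among the MyD88-ko arrays. Without WT replicate 2 the difference of Mmp8 shrank from -0.91 to -0.09, and without WT replicate 1 it was -1.74. Mmp25, a membrane-bound metalloproteinase, had a MyD88-ko average of 4.67 ± 0.52 (SD, n = 3) against a WT average of 5.62 ± 0.04 (SD, n = 2), with no array over the limit.

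The stefins are a cluster of near-identical genes on chromosome 16 that encode cysteine protease inhibitors of neutrophils, and the 4 probe sets gave different pictures. Stfa2l1 read 3.21, 2.92 and 2.67 in MyD88-ko and 6.43 and 5.57 in WT, a log2 difference of -3.07 that passed (limma, adjusted p = 0.034) although every array was under the limit. Stfa2 read 2.87, 2.71 and 2.78 against 5.07 and 3.80, a difference of -1.65 that did not pass (limma, adjusted p = 0.168). Stfa1 had means of 2.43 and 2.53, and Stfa3 of 3.47 and 3.49, with arrays that overlapped.

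Stfa2l1 and Stfa2, the stefins with the lowest differences, were compared upstream of the start. In the best ungapped alignment of the windows, Stfa2l1 and Stfa2 were 76.4% identical over 246 bases, against 55.4% to 72.2% for the other 5 pairs. Without gaps, 1 inserted base puts the rest of a pair out of register, so these values do not rank the pairs by likeness. The probes behind each set are not used here, so reads of one stefin by the probe set of another cannot be told apart from its own signal, and these 4 values are uncertain. Unlike most mature genes, Stfa2l1 and Stfa2 were higher on WT replicate 1 than on WT replicate 2, with log2 differences (WT 2 minus WT 1) of -0.86 and -1.27.

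Among enzymes, adaptors and regulators, Hdc was the gene that fell. Hdc encodes histidine decarboxylase, the enzyme that makes histamine, and it is expressed in immature and mature granulocytes as well as in mast cells and basophils. It read 6.32, 6.45 and 6.43 on the MyD88-ko arrays, all under the limit, and 9.0 and 9.83 on the WT arrays. The fall was at least 6.89-fold (limma, adjusted p = 0.029), the largest bound among the members. No array exceeded the limit for any of the 7 markers of mast cells and basophils. In MyD88-ko and WT, Cpa3 had means of 3.04 and 3.01, Mcpt8 3.29 and 3.18, and Ms4a2 2.68 and 2.43. Those of Mcpt4 were 2.59 and 2.50, of Fcer1a 3.25 and 3.09, and of Gata2 3.38 and 3.45. None of these passed, and the part of mast cells and basophils in the Hdc difference was not tested. Kit, at 4.94 and 6.14, differed by -1.20 without passing (limma, adjusted p = 0.190), and with it the summed signal of the list was 6.22 to 6.51 (log2) in MyD88-ko against 6.79 and 6.99 in WT.

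The remaining genes of this role split. G0s2, an inhibitor of fat breakdown, read 6.77, 7.07 and 6.68 against 7.69 and 8.17, and its 2.14-fold difference did not pass (limma, adjusted p = 0.134). Msrb1, a selenoprotein that repairs oxidized methionine, was tight within groups at 8.22, 8.08 and 8.21 against 8.97 and 8.91. Its groups did not overlap, and the 1.71-fold difference had an adjusted p of 0.080 (limma).

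The other 3 genes did not follow the mature pattern. Padi4, the enzyme that citrullinates histones when neutrophils release chromatin, read 5.82, 4.82 and 6.05 in MyD88-ko and 4.26 and 5.55 in WT, the highest difference of any member at 0.66 (95% interval -0.52 to 1.84). Its arrays overlapped and all were under the limit. Cebpe, the transcription factor that drives secondary granule genes in the marrow, had means of 3.66 and 3.64, and Pram1, an adaptor of neutrophil signalling, 3.73 and 3.70. Cebpe lay at background, as did Camp, Ngp and Ltf, while another gene of a granule protein, Lcn2, was above the limit on both WT arrays.

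**Figure D3:**
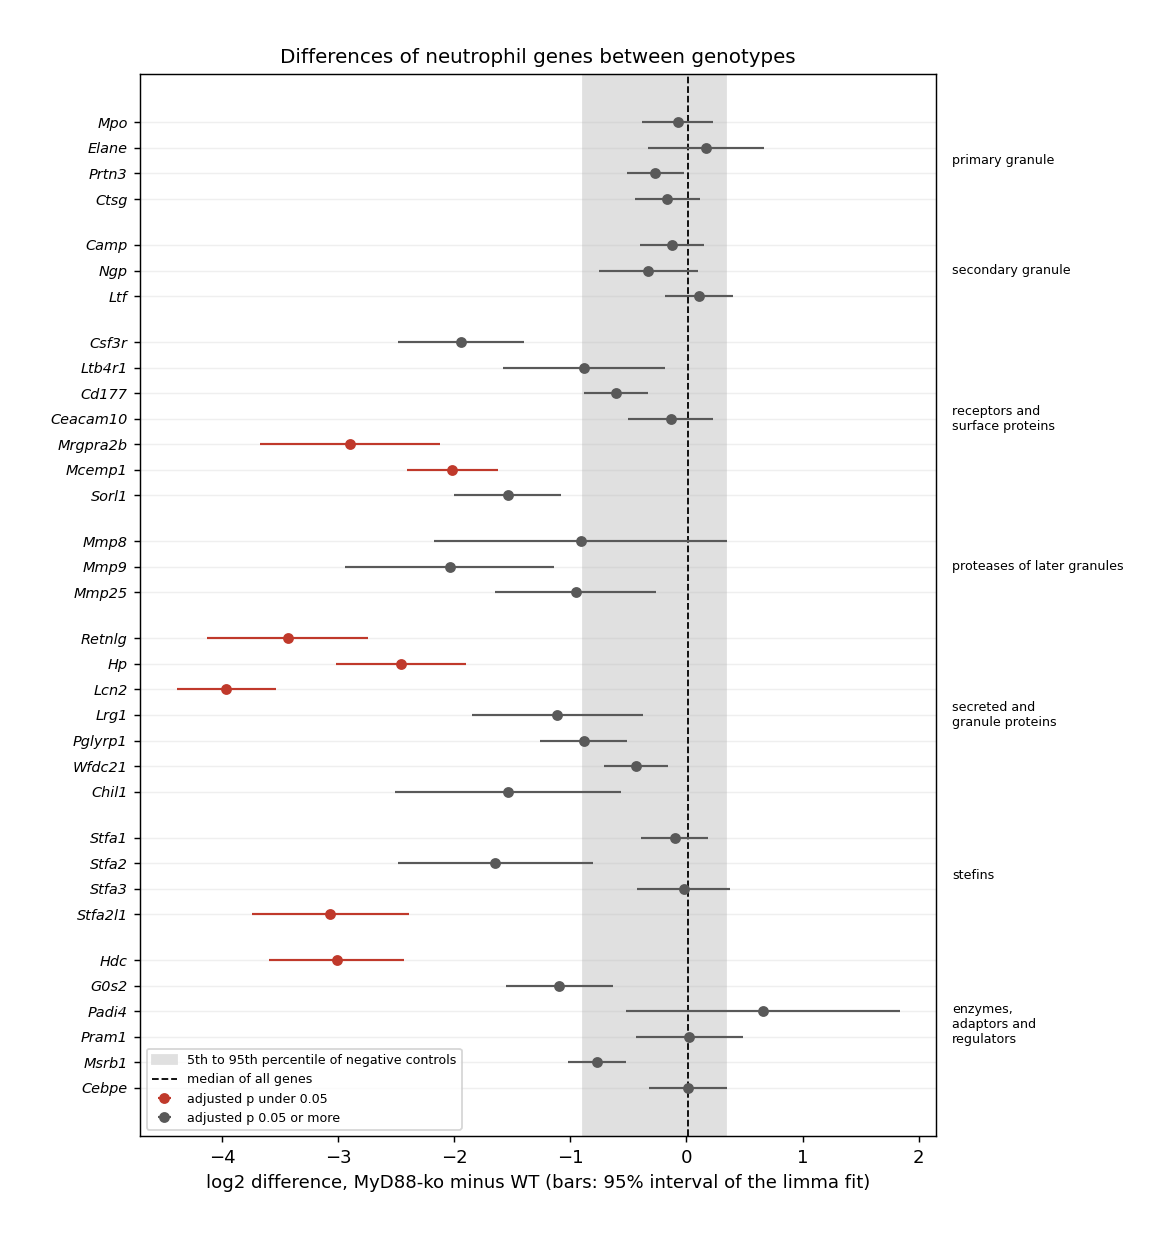
Log2 difference, MyD88-ko minus WT (x axis), of the 34 neutrophil genes by role, with 95% intervals of the limma fit as bars, the 7 genes with an adjusted p under 0.05 in red, and a grey band from the 5th to the 95th percentile of the negative controls. The granule genes all lie inside the band, between -0.33 and 0.17, and the mature genes spread from -3.96 for Lcn2 to 0.66 for Padi4.

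The calls needed all 5 arrays. Without any 1 array none of the 7 members passed (limma, adjusted p from 0.062 to 0.490), while all 7 kept their direction and an unadjusted p under 0.05 in each of those 5 fits. In the fits without a WT array all of the spread comes from the MyD88-ko group, and the single WT array is taken to share it. The 3 measured Y-linked genes were lower on every MyD88-ko array, with a summed signal of 6.77 to 7.80 (log2) against 8.14 and 8.44 in WT, and with their average as a covariate no member passed (limma, adjusted p from 0.110 to 0.319). The 7 kept an unadjusted p under 0.05 with the covariate, and their differences were of similar size, such as -3.68 for Lcn2, -3.59 for Retnlg, -2.96 for Hdc and -2.88 for Hp. A single member, Lcn2, passed when the fit took in all 28846 probe sets, controls included.

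The WT arrays were not equal for these genes. WT replicate 2 was higher than WT replicate 1 for 18 of the 27 mature genes, against 45.9% of all genes, and for all 7 secreted and granule proteins and all 3 proteases. Among the widest steps were 1.66 for Mmp8, 1.44 for Chil1, 1.18 for Mmp9, 1.28 for Padi4 and 0.96 for Retnlg. Within MyD88-ko, replicate 2 was the lowest array for 14 of the 27 mature genes and replicate 3 the highest for 13. The median of the mature genes was accordingly 4.36, 4.38 and 4.73 on the MyD88-ko arrays and 5.59 and 5.69 on the WT arrays. The median of their log2 differences was negative whichever array was left out, from -1.34 to -0.85.

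Further neutrophil genes were taken from outside the list. The 34 genes of this set included 6 ligands (Csf3, Cxcl1, Cxcl2, Cxcl3, Cxcl5 and Ppbp), of which 1 fell. Of the 34 genes 30 were measured, 7 fell (background 0.185%), none rose, and the median difference was -0.68. Those that fell were S100a8, S100a9, the chemokine receptor Cxcr2, the decoy receptor Il1r2, the receptor Trem1, the arginase Arg2 and the chemokine Cxcl2. Arg2, under the limit on all arrays, read 3.99, 3.86 and 4.55 in MyD88-ko and 6.42 and 6.34 in WT (limma, adjusted p = 0.036). The C-type lectin receptors Clec4e (4.75-fold lower, adjusted p = 0.058 by limma) and Clec4d (2.70-fold lower, adjusted p = 0.085) were above the limit on all arrays and did not pass. Nor did the chemokine receptor Cxcr1, with means of 4.20 and 4.66, or the Fc receptor Fcgr4, with means of 6.74 and 7.62.

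Genes that mark neutrophil precursors were at background here too. Ms4a3, of granulocyte and monocyte progenitors, had means of 3.16 and 3.12, Fcnb, a ficolin of immature neutrophils, 2.84 and 3.03, and Itgb2l, an integrin chain of myelocytes, 3.78 and 3.90. The repressor Gfi1, needed for granulocyte fate, had means of 5.22 and 5.23, under the limit. Cebpa, the factor that opens the granulocyte programme and is also active in macrophages, was 1.48-fold higher in MyD88-ko without passing (limma, adjusted p = 0.276), and Cebpd was 1.39-fold lower (limma, adjusted p = 0.355). Csf3, the ligand of Csf3r, was under the limit at 4.58 and 4.65. Ncf1 and Cybb, oxidase subunits that macrophages share with neutrophils, were above the limit on all arrays and differed by -0.04 and -0.31.

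Markers of other cells moved with the mature genes in part. Of 6 classical monocyte markers, 5 had all MyD88-ko arrays below both WT arrays (Ly6c2, Ccr2, Plac8, Vcan and Chil3), where the background was 12.9%. None passed, and 5 were lower at an unadjusted limma p under 0.05 (background 6.39%). The 6 monocyte markers had a median log2 difference of -1.65, against -1.10 over the mature neutrophil genes. Their summed signal was 10.60 to 11.25 (log2) in MyD88-ko and 11.87 and 12.37 in WT. Within WT, 2 of the 6 monocyte markers were higher on WT replicate 2 than on WT replicate 1, against 45.9% of all genes. The 9 macrophage markers summed to 13.53 to 13.61 in MyD88-ko and 13.19 and 13.44 in WT, and none passed. Every MyD88-ko array was above both WT arrays for 6 of the 9 (background 14.8%) and below them for 1 (background 12.9%). At an unadjusted limma p under 0.05, 4 were higher in MyD88-ko (background 6.16%) and 0 were lower. The 5 eosinophil markers exceeded the limit nowhere, with sums of 5.76 to 5.87 and of 5.84 and 5.88. The 5 melanoma markers summed to 11.63 to 12.10 and to 11.58 and 12.11. The part of any of these lists in the neutrophil result was not tested.

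**Figure D4:**
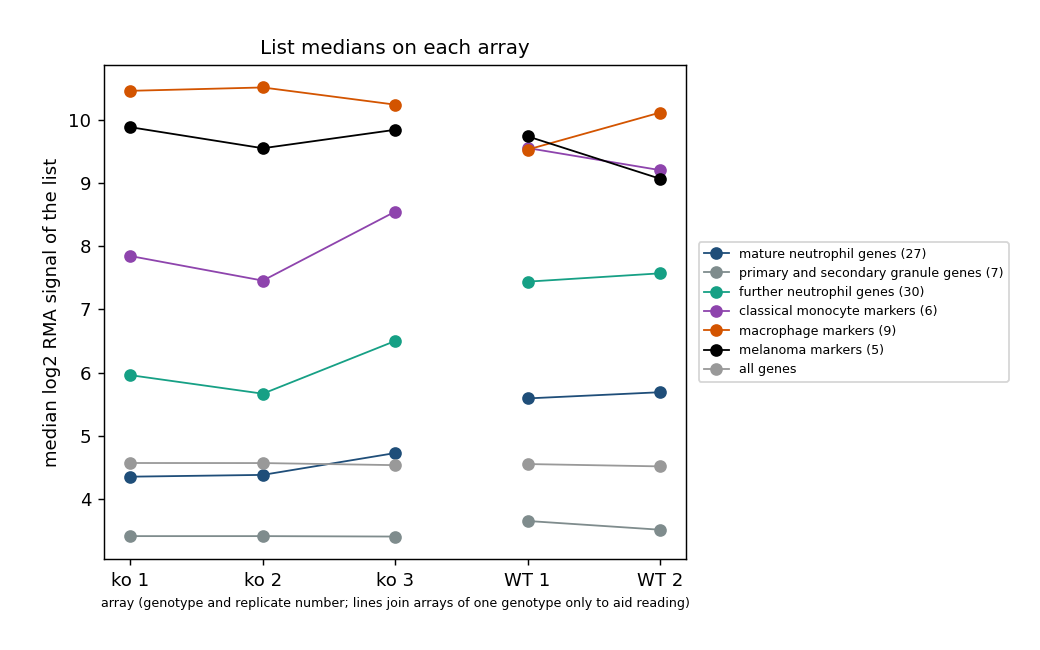
Median log2 RMA signal (y axis) of 7 gene lists on each array (x axis, MyD88-ko replicates 1 to 3 and WT replicates 1 and 2). The mature neutrophil genes lie at 4.36 to 4.73 in MyD88-ko and 5.59 and 5.69 in WT, the granule genes stay between 3.41 and 3.66 on all 5 arrays, and the classical monocyte markers are lower in MyD88-ko, at 7.46 to 8.55 against 9.20 and 9.55.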

How the data were processed

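RNA of 5 samples (3 MyD88-ko, 2 WT) was made into labelled cDNA from 100 ng and hybridised to Affymetrix whole-transcript arrays, per the labels' protocols. The authors deposited log2 values from RMA, run in Expression Console 1.1 according to the submitters' processing notes. No source used here names a genome build for the probe sets. Of 28846 probe sets, 19572 had 1 gene symbol in the platform annotation. The probe set with the highest mean over 5 arrays was kept for the 55 genes with several, which left 19505 genes. The genotype term came from limma 3.58.1 under R 4.3.3 (lmFit, eBayes), and p-values were adjusted by Benjamini-Hochberg over all genes. Intervals are 95% intervals of this fit. On simulated data the median estimates of the fit were checked against the differences put in, and the intervals were not checked. A gene under the 95th percentile of the negative controls on every array of a group has only a bound there. "At least" folds set the brighter mean against the mean of, per array, the higher of limit and value, and where neither group exceeded the limit no fold was computed. Arrays give no read depth, and their number limits the precision.

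The members, role groups, marker lists, motifs and alternatives were chosen with earlier results of these data known. The rule for named genes took every measured member. Values per array were printed for members above the limit on at least 1 array and for the 7 granule genes, other members were given by means, and the further neutrophil genes named were those that passed, receptors and transcription factors. Values per array of dimmer members, and Ms4a3, Fcnb, Itgb2l, Csf3, Ncf1 and Cybb, were added after their values were seen. The T cell, B cell, NK cell, dendritic cell, erythroid and cycling cell markers had median differences of 0.13, -0.12, -0.28, -0.49, -0.48 and 0.69. Klrd1, of the NK cell list, was the only gene of these lists that passed. RefSeq upstream windows (GRCm38.p6) were matched by symbol for 32 of 36 members. Alternatives covered array scaling, filters, moderation, array weights, a replicate block, a Y-linked covariate and leaving out each array.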

Additional observations from a re-analysis of the deposited data

How the results depend on the processing

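Without each array in turn, 0 to 1 genes were called over all genes, 0 to 0 members and 0 to 1 of the further neutrophil genes (limma, 37, 7 and 7 with all arrays), while 1691 to 3762 genes had an unadjusted p under 0.05. In those fits the median difference ranged from -1.34 to -0.85 for the mature genes and from -0.21 to -0.11 for the granule genes, and that between them from -1.23 to -0.64. With the Y-linked covariate the 3 counts were 0, 0 and 0 (limma, 1818 genes at an unadjusted p under 0.05), and the medians were -1.45 (mature), 0.0018 (granule) and -1.45 (between them). The fit of all probe sets called 3, 1 and 1. It adjusted over more features and also raised the unadjusted p-values (Lcn2 from 3.8e-07 to 1.1e-06). Array weights called 15 over all genes and 3 further neutrophil genes, and 5 members. The count over all genes was 63 with cyclic loess and 84 at an adjusted p under 0.10. Equal array medians moved the median of all genes to 0.07 and that of the granule genes to -0.064. Keeping genes over the 50th percentile left 19 mature and 2 granule genes, with medians of -1.54 and -0.049, -1.49 apart. Setting values under the limit to the limit put most members of both groups at it, so both medians became -0.31, the difference of the limits themselves, 0 apart. The narrower mature group, with 18 measured genes, gave -1.10.

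Csf3r was also called with cyclic loess, both filters, quantile normalization again, trended and robust moderation and equal array medians, and Sorl1 with quantile normalization again, cyclic loess and both filters. Signs turned only in dim genes: Stfa3 to 0.016 (quantile normalization again), 0.034 (equal medians), 0.11 (without MyD88-ko replicate 1) and 0.09 (without WT replicate 1). With the Y-linked covariate Camp was 0.022, Ngp 0.042 and Ceacam10 0.15. Without MyD88-ko replicate 1 Pram1 was -0.14 and Cebpe -0.073, and without WT replicate 1 Mpo was 0.062 and Cebpe -0.034. Over all leave-outs Pram1 ranged from -0.14 to 0.18, Cebpe from -0.073 to 0.11, Mpo from -0.21 to 0.062 and Stfa3 from -0.14 to 0.11. The cause of these changes was not tested. With the replicate number as a block the count over all genes was 70, and all 7 members stayed below 0.05. No label says whether equal numbers pair the arrays. Deviations from the group means correlated at 0.06 and 0.10 in the 2 shared numbers, and MyD88-ko replicate 3 has no partner. These values cannot decide it, because the deviations of the 2 WT arrays are mirror images of each other.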
